A study of Mus musculus with 16 samples.

Results

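Bone marrow-derived macrophages (BMDMs), grown from marrow precursors in M-CSF, were compared in a proinflammatory (M1-like) and an unstimulated (M0) state, both under vehicle. The comparison took the 4 M1 vehicle and the 4 M0 vehicle libraries of 16 in all, chosen by their labels and not by any measured value. It was read over the 48440 rows of the count table, 1 row per annotated mouse gene. Both groups came from 8-week-old female NOD.hALOX12 mice, in which the coding region of human ALOX12 stands in place of mouse Alox15 under the mouse regulatory region. Marrow was kept in M-CSF (10 ng/mL) for 7 days, and the cells then received vehicle (0.1% DMSO) for 1 hour. M1 vehicle cells were next stimulated with IFN-γ (25 ng/mL) together with LPS (10 ng/mL), the methods giving 18 hours, and M0 vehicle cells were not. The replacement allele, the NOD background, M-CSF and DMSO were thus shared by both groups. No source used here says that the 4 libraries of a group came from separate mice, so p-values reflect only how far these libraries spread, possibly for technical reasons. The other 8 libraries, from cells given the 12-LOX inhibitor VLX-1005, entered the fit for the estimate of spread.

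LPS, a component of the outer membrane of Gram-negative bacteria, is sensed by TLR4 and activates NF-κB and interferon regulatory factors, and the type I interferon made in response acts back on the cell. IFN-γ signals through JAK kinases to genes with GAS elements, while type I interferon acts mainly on genes with an interferon-stimulated response element (ISRE). Macrophages given both are known for chemokine and cytokine output, antigen presentation, nitric oxide and itaconate, and for lower levels of scavenger receptors of the resting state.

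The libraries were strand-specific, and no source used here gives the strand setting of the read counting. Most counts lay in rows with an exon that overlaps an exon of a gene on the other strand. Such rows made up 8460 of 48440 (17.46%), and they held 97.04% to 97.17% of the counts of an M1 vehicle library and 96.32% to 96.82% of an M0 vehicle library. Each row is therefore given with the gene opposite to it, and a gene is given by its own row and by the row opposite. Whether a count came from 1 strand or the other cannot be told apart in this table. Likewise, fewer cells of a kind and less RNA per cell cannot be told apart in RNA from a whole culture.

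Total counts were 968819 to 1088112 in M1 vehicle libraries and 1060684 to 1128575 in M0 vehicle libraries. M1 vehicle libraries had counts in 7968 to 8540 rows, against 8875 to 9734 rows in M0 vehicle libraries. The difference of means was -1086 rows (two-sided exact permutation test, p = 0.0286, the smallest that the 70 labellings of 4 against 4 can give). It was -1004 rows without M1 vehicle 1 and -991 rows without M1 vehicle 2 (exact p = 0.0571 in both). The 100 rows of most counts held 58.91% to 60.32% of an M1 vehicle library and 49.67% to 52.19% of an M0 vehicle library (difference 8.87 percentage points, exact p = 0.0286). For the 10 highest rows the share was 24.59% to 25.56% in M1 vehicle and 22.95% to 25.28% in M0 vehicle (difference 1.51, exact p = 0.0857, and 2.06 with exact p = 0.0286 without M0 vehicle 1). Thus counts were spread over fewer rows in M1 vehicle. Rows detected were not adjusted for total counts. M1 vehicle 1 and 2, with 971639 and 968819 counts, had 8007 and 7968 rows. M1 vehicle 3 and 4, with 1088112 and 1086841 counts, had 8494 and 8540 rows. M0 vehicle 2, with 1077534 counts, had 8875 rows, the fewest in M0 vehicle. The M1 vehicle libraries separated from the M0 vehicle libraries in rows detected and in the share of the 100 highest rows, and overlapped them in total counts and in the share of the 10 highest.

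Most of the rows that could be tested differed between M1 vehicle and M0 vehicle. Of 3453 rows with enough counts, 1093 (31.7%) rose and 1202 (34.8%) fell in M1 vehicle against M0 vehicle (edgeR's quasi-likelihood test, adjusted p under 0.05). A row high in a single group could pass the low-count filter through that group and then had to differ, so the counts of calls describe the rows tested and not all genes. Past a 2-fold change with p under 0.05 before adjustment, 671 rows (19.4%) were higher and 800 (23.2%) lower. In 2024 of the 3453 rows (58.6%), the 4 M1 vehicle and the 4 M0 vehicle values did not overlap. The large changes were more often increases. At least 8-fold changes were calls of 222 rows that rose and 170 that fell, and at least 32-fold changes of 98 that rose and 43 that fell. Levels are in CPM (counts scaled to a common library size with TMM factors), changes are log2 fold changes of M1 vehicle over M0 vehicle, the SE is that of the log2 fold change, and means are given ± SD over the 4 libraries of a group. The median log2 fold change over all rows tested was -0.10.

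The split into increases and decreases depended on the scaling. Increases made up 47.6% of the calls with TMM scaling and 28.0% (713 rose and 1833 fell) when counts were scaled to the library totals alone, an alternative chosen after seeing the data. That scaling moved the median log2 fold change by -0.48, so an increase smaller than this turns into a decrease under it. Among the rows named here, the increases of Abhd15, Cdk4, Gm37401, Mpeg1, Nkiras1, Rpe, Rps25, Tapbp and mt-Tp no longer passed the test under it, and those of Irak4, Irf5 and Rnaseh2a turned negative. In turn, 8 named rows that were not called fell under it, namely Grtp1 (-0.49), Gm10252 (-0.38), Gm15655 (-0.56), Csf1r (-0.38), Arg2 (-0.69), Gapdh (-0.96), Plpp1 (-0.54) and Ccna2 (-0.32).

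Of the rows tested, 2765 (80.1%) had exons opposite to an exon, and among them 836 rose and 1001 fell, with a median log2 fold change of -0.14 and a median level of 65.9 CPM. A further 138 rows lay within or across a gene on the other strand without exon overlap (43 rose and 45 fell). The 537 rows without any gene on the other strand had a median of 12.3 CPM and held 1.47% of the M1 vehicle and 1.53% of the M0 vehicle counts. Of these, 209 rose and 152 fell, with a median log2 fold change of 0.11. Rows of this last kind were thus low in counts, and increases outnumbered decreases among them.

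**Figure D1:**
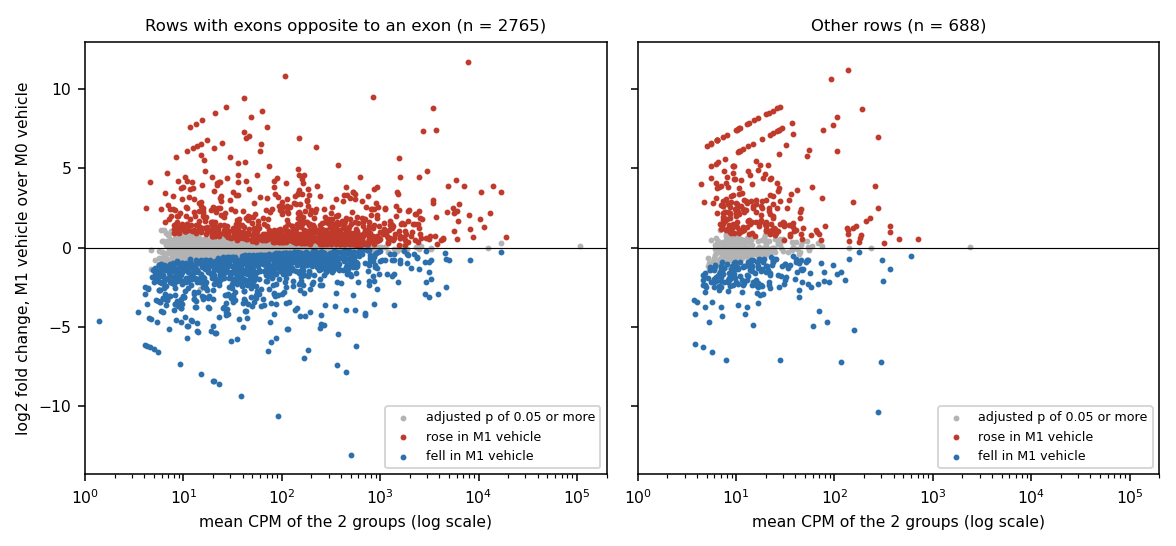
Log2 fold change of M1 vehicle over M0 vehicle against the mean CPM of both groups (log scale), 1 point per row tested, for the 2765 rows with exons opposite to an exon (left) and the other 688 rows (right). Red rows rose and blue rows fell at an adjusted p under 0.05, and 157 rows above 1000 CPM lie in the left panel against 1 in the right.

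The 10 rows of most counts moved in different directions. Gm10252 lies opposite to Ftl1, the gene of the ferritin light chain, and had 119137, 115273, 109401 and 104357 CPM in the M1 vehicle libraries, against 113619, 101844, 101458 and 102156 CPM in the M0 vehicle libraries. The ranges overlapped, with a log2 fold change of 0.10 (SE 0.06) and an adjusted p of 0.169. Grtp1, opposite to Lamp1, which encodes an abundant membrane protein of lysosomes, had 12361, 12471, 12595 and 12257 CPM in the M1 vehicle libraries, against 12637, 12908, 11983 and 12407 CPM in the M0 vehicle libraries. These ranges also overlapped (-0.01, SE 0.05, adjusted p = 0.896). The row Gm26825, opposite to Gm15459, averaged 23677 ± 1054 CPM in M1 vehicle and 14792 ± 1123 CPM in M0 vehicle (SD, n = 4 each), and rose (log2 fold change 0.68, SE 0.06, adjusted p = 9.92e-10). Gm20721, opposite to Gnas, which encodes the stimulatory G protein α subunit, averaged 15068 ± 1004 CPM in M1 vehicle and 18409 ± 428 CPM in M0 vehicle (SD, n = 4 each), and its log2 fold change of -0.29 (SE 0.05) had an adjusted p of 7.83e-05. The ribosomal RNA row CT010467.1, opposite to Gm42418, spread widely between libraries and overlapped, averaging 18580 ± 5468 CPM in M1 vehicle and 14934 ± 3655 CPM in M0 vehicle (SD, n = 4 each, 0.31, SE 0.20, adjusted p = 0.174). Without M1 vehicle 4 or M0 vehicle 1 its log2 fold change was 0.48 or 0.52, past the threshold (adjusted p = 0.0372 and 0.0234, edgeR).

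Among the other 5 of the 10 highest rows, all rose. A930037H05Rik, opposite to Rnf213, a large interferon-induced ubiquitin ligase, had 22934, 22934, 28526 and 29649 CPM in the M1 vehicle libraries, against 2031, 1646, 1557 and 1928 CPM in the M0 vehicle libraries. Every M1 vehicle library lay above every M0 vehicle library (log2 fold change 3.86, SE 0.13, adjusted p = 3.28e-17). Gm20412, opposite to the transglutaminase gene Tgm2, averaged 21607 ± 561 CPM in M1 vehicle and 4687 ± 267 CPM in M0 vehicle (2.20, SE 0.06), and BE692007, opposite to the membrane protein gene Ms4a6c, 31205 ± 2321 CPM in M1 vehicle and 2705 ± 207 CPM in M0 vehicle (3.53, SE 0.07; SD, n = 4 each). Gm26778, opposite to Kctd12, had 16055 ± 1197 CPM in M1 vehicle and 6628 ± 171 CPM in M0 vehicle (1.28, SE 0.06). Gm20496 is opposite to both Psmb8 and Tap2 and is described with antigen presentation.

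The largest increases, among rows at 20 CPM or more in a group whose libraries did not overlap, led with the row opposite to Cxcl10, a chemokine that draws activated T cells. Art3 (chr5:92331827-92414628, plus strand, mm10) had 16494, 14159, 18298 and 13769 CPM in the M1 vehicle libraries, against 3.26, 4.78, 4.56 and 5.61 CPM in the M0 vehicle libraries. The M1 vehicle libraries lay far above the M0 vehicle libraries, with a log2 fold change of 11.71 (SE 0.18) and an adjusted p of 2.26e-23. Gm14023, opposite to the interleukin gene Il1a, had 1724, 1631, 1781 and 1642 CPM in the M1 vehicle libraries, against 1.63, 1.59, 0 and 5.61 CPM in the M0 vehicle libraries (9.53, SE 0.27, adjusted p = 1.33e-18). Mir6381 (chr3:142623860-142623946, minus strand), a microRNA row that overlaps an exon of Gbp2 on the other strand, had 6776, 6675, 7246 and 6752 CPM in the M1 vehicle libraries, against 11.4, 16.7, 12.9 and 20.02 CPM in the M0 vehicle libraries (8.80, SE 0.13, adjusted p = 2.26e-23). For these 3 rows no M0 vehicle library came near an M1 vehicle library.

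Of the 12 largest increases, 8 had 0 counts in all 4 M0 vehicle libraries, and their folds are lower bounds against 3 counts over the group. Rsad2, the gene of the antiviral enzyme viperin, had 314, 298, 294 and 203 CPM in the M1 vehicle libraries, at least 467-fold higher. Gm11978, opposite to Ramp3, a partner protein of G protein-coupled receptors, averaged 214 CPM and was at least 359.5-fold higher. Ghdc averaged 184 CPM (at least 309-fold higher), and Gm16578, opposite to the histamine receptor gene Hrh2, 82.6 CPM (at least 139-fold higher). Gbp5, Spatc1 (opposite to the long noncoding RNA Mirt2), the receptor gene Tlr1 and the chemokine gene Cxcl9 were at least 94.1-fold, 91.2-fold, 88.1-fold and 79.4-fold higher. Tnfrsf8, which encodes CD30, had 362, 438, 399 and 331 CPM in the M1 vehicle libraries, against 0.815, 0.797, 0.76 and 0.801 CPM in the M0 vehicle libraries (8.72, SE 0.22).

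The largest decreases included rows opposite to a transporter gene, a prostaglandin synthesis gene and a cyclin gene. Gm15635 (chr7:99660130-99667500, plus strand), opposite to the organic anion transporter gene Slco2b1, had 0 counts in all 4 M1 vehicle libraries, against 1096, 1051, 973 and 934 CPM in the M0 vehicle libraries. It was at least 1163-fold lower. Gm43621, opposite to Ptgs1, which encodes cyclooxygenase-1, had 0 counts in all 4 M1 vehicle libraries, against 204, 205, 151 and 179 CPM in the M0 vehicle libraries (at least 212-fold lower). No M1 vehicle library had a count in either row. Exosc9, opposite to the cyclin A2 gene Ccna2, had no count in M1 vehicle against a mean of 40.7 CPM in M0 vehicle, at least 46.7-fold lower. Gm9920, opposite to Deptor, an inhibitor of mTOR, and Gm16268, opposite to the hyaluronan scavenger receptor gene Stab2, were at least 45.8-fold and 34.4-fold lower. Gm10605, opposite to Tpbgl, and Gm42848, opposite to Zfyve28, were at least 88.5-fold and 52.7-fold lower.

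Cd163, a scavenger receptor for haptoglobin-hemoglobin complexes with no exon opposite, had 1.25, 4.91, 4.46 and 4.29 CPM in the M1 vehicle libraries, against 591, 693, 538 and 525 CPM in the M0 vehicle libraries (-7.24, SE 0.19, adjusted p = 3.83e-19). Every M1 vehicle library was below 5 CPM. Prune2 had 1 count in all 4 M1 vehicle libraries together and averaged 549.9 ± 55.4 CPM in M0 vehicle. Gm45449, opposite to the ubiquitin ligase gene Rnf150, averaged 4.01 ± 1.23 CPM in M1 vehicle and 719 ± 69.7 CPM in M0 vehicle (-7.43, SE 0.17), and Gm26735, opposite to the transcription factor gene Sox4, 3.82 ± 1.21 CPM in M1 vehicle and 898 ± 99.7 CPM in M0 vehicle (-7.85, SE 0.21). Gm38248 spread widely between the M0 vehicle libraries. It had 2.5, 0, 2.23 and 1.07 CPM in the M1 vehicle libraries, against 94.5, 405, 37.3 and 385 CPM in the M0 vehicle libraries (-7.20, SE 1.48), and limma-voom did not call it (-6.47, adjusted p = 0.146).

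**Figure D2:**
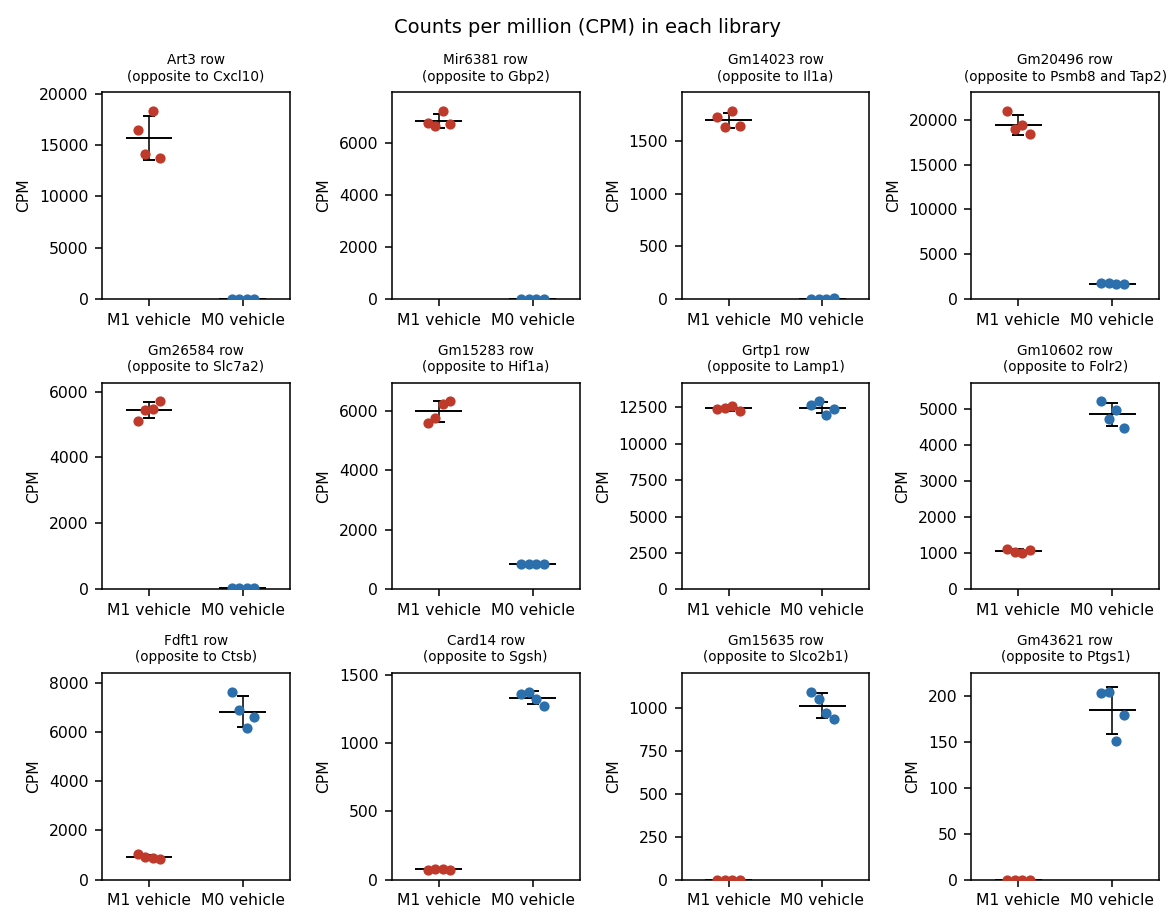
CPM of 12 rows in each M1 vehicle library (red, left in each panel) and M0 vehicle library (blue, right), on linear axes from 0, with the mean and SD (n = 4 each) as bars. The groups separate in 11 of the rows and overlap in the Grtp1 row, opposite to Lamp1.

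Where a row is opposite to several genes, the gene of the list is named below. Gene lists by role gave 745 genes in 26 lists, and each gene was read by its own row and by the row opposite. The lists and their members were chosen with earlier results of these data known, so counts over them describe the members and test nothing. A row at or near 0 in a group passed the count filter only through other groups, so its direction was fixed by the filter. Beyond the interferon, GTPase and chemokine lists, rows at 0 lay in the pattern recognition, nitric oxide, eicosanoid, resting macrophage and cell cycle lists. The own row was tested for 218 of the genes, the opposite row for 145, both for 83 and neither for 465. Tested own rows had a median of 20.5 CPM, and tested opposite rows 376 CPM. Of the tested own rows 125 rose and 42 fell, and of the tested opposite rows 82 rose and 44 fell. Where both were called, they moved the same way for 50 genes and opposite ways for 8. Rows opposite to each other can count in both readings and in different lists, so these counts are not separate. Ctsa with Pltp and Ikbkg with G6pdx are such pairs. A count over a list is to be read against the 31.7% of all rows that rose and the 34.8% that fell, and its median against -0.10.

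Interferon-stimulated antiviral genes were higher in M1 vehicle in each row that could be tested. Of 52 genes, 17 own rows and 10 opposite rows were tested, and all rose, with medians of 4.03 and 3.08. Of the own rows, 3 had 0 counts in M0 vehicle and could pass the count filter only through other groups, so their rise was fixed by it. The same holds for own rows with only a few counts in M0 vehicle. The opposite rows were the abundant ones. Gm44148, opposite to Usp18, which removes ISG15 from proteins and restrains the type I interferon receptor, had 7926, 6927, 7776 and 6407 CPM in the M1 vehicle libraries, against 43.2, 52.6, 35.7 and 36.8 CPM in the M0 vehicle libraries (7.43, SE 0.13, adjusted p = 5.12e-22). Usp18's own row had 6.44 CPM in M1 vehicle and 4.74 CPM in M0 vehicle and was not tested. Chrnb2, opposite to the RNA-editing deaminase gene Adar, had 3707, 3616, 4021 and 3574 CPM in the M1 vehicle libraries, against 901, 849, 834 and 890.5 CPM in the M0 vehicle libraries (2.10, SE 0.06). The M1 vehicle values of both rows lay above those of M0 vehicle without overlap. Gm11626, opposite to Ifi35, averaged 2740 ± 189.7 CPM in M1 vehicle and 266 ± 13.7 CPM in M0 vehicle (3.36, SE 0.08), and Dhx58os, opposite to the RNA sensor gene Dhx58, 1368 ± 122 CPM in M1 vehicle and 145 ± 8.86 CPM in M0 vehicle (3.24, SE 0.08; SD, n = 4 each). Rnf213 and Slfn5, a member of the Schlafen family, were tested on both strands. Rnf213's own row had a log2 fold change of 2.02 (SE 0.41) against 3.86 (SE 0.13) opposite, and Slfn5's own row 1.45 (SE 0.37) against 2.62 (SE 0.08) for Slfn5os.

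The IFN-γ-induced GTPases, which act on vacuoles that hold pathogens, had 20 genes in their list. All 10 tested own rows rose (median 6.79, or 5.10 with the 6 rows at 0 in M0 vehicle set to their lower bounds), as did both opposite rows (median 6.47). Those 6 rows could pass the count filter only through other groups, so their rise was fixed by it. The same holds for rows near 0 in M0 vehicle, such as Gbp7 (mean 0.783 CPM) and Irgm2. Only this list and the chemokines had medians that moved with such bounds. Gbp2's own row averaged 30.6 CPM in M1 vehicle and had 0 counts in M0 vehicle, at least 51.4-fold higher, below the 6862 CPM of Mir6381 opposite to it. Gbp7 had 45.1, 29.5, 31.2 and 31.1 CPM in the M1 vehicle libraries, against 0.815, 0.797, 1.52 and 0 CPM in the M0 vehicle libraries (5.23, SE 0.45). Its M0 vehicle libraries held at most a few counts. Iigp1 was at least 33.2-fold higher, Gbp3 at least 26.98-fold higher, and Irgm2 averaged 18.4 ± 5.7 CPM in M1 vehicle and 0.4 ± 0.461 CPM in M0 vehicle (SD, n = 4 each). Irgm1, with 10.5 CPM in M1 vehicle and 1.98 CPM in M0 vehicle, had too few counts for the test.

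All 5 tested chemokine rows of 21 genes rose (median 7.64, or 5.29 with lower bounds), as did both opposite rows (median 7.02). Of the 5 own rows, 3 were at 0 in M0 vehicle, and their rise was likewise fixed by the count filter. Cxcl10's own row averaged 23.2 CPM in M1 vehicle and 0 counts in M0 vehicle (at least 39.1-fold higher). Zmynd15, opposite to Cxcl16, a chemokine that is also made as a membrane-bound form, had 10415, 9780, 9989 and 10089 CPM in the M1 vehicle libraries, against 1879, 2080, 2256 and 1875 CPM in the M0 vehicle libraries (2.32, SE 0.06), and Cxcl16's own row averaged 232 ± 24.1 CPM in M1 vehicle and 33.2 ± 3.71 CPM in M0 vehicle (2.80, SE 0.15). Both rows of this pair separated the groups. Ccl3, which attracts monocytes and lymphocytes, had 227, 190.4, 234 and 206 CPM in the M1 vehicle libraries, against 93.7, 91.7, 87.5 and 94.5 CPM in the M0 vehicle libraries (1.22, SE 0.12), and Ccl5, which attracts T cells, averaged 40.6 CPM in M1 vehicle against 0 counts in M0 vehicle (at least 68.3-fold higher).

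Promoters of genes in these 3 lists are shown because the genes have a known response to interferon, and the row read for each lies on the strand opposite to the promoter's gene. For each list the promoter is that of the member with the highest M1 vehicle level, by its own or its opposite row, that holds an ISRE core. They are RefSeq sequences of GRCm38.p6 from 250 bases before to 50 after the transcription start, 5′ to 3′ on the gene's strand, and the capitals mark the ISRE core GAAANNGAA or its reverse complement TTCNNTTTC.
Cxcl10, chr5:92348840-92349139, minus strand: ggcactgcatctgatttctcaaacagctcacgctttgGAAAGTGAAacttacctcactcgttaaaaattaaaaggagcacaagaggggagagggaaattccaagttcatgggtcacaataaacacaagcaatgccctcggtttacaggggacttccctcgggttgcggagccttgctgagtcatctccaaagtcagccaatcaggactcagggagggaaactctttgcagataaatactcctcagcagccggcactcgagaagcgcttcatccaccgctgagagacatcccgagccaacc
Gbp2, chr3:142620413-142620712, plus strand: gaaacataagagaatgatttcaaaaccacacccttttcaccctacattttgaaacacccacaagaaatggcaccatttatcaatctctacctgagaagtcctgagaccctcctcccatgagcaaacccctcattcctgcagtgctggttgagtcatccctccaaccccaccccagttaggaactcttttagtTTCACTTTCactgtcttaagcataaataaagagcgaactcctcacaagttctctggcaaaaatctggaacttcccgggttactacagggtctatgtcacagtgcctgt
Adar, chr3:89730468-89730767, plus strand: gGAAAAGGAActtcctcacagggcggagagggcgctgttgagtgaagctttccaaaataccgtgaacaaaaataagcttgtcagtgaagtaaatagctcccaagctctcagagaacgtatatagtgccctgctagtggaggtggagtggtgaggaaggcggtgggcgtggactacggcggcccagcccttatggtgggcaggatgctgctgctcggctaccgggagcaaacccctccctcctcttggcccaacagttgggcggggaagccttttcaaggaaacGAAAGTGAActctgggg
The core began at position -213 from the start in Cxcl10, at -58 in Gbp2, and at -249 and 33 in Adar. An ISRE core was found on either strand in 8.56% of all 32851 promoters of 27025 genes in the RefSeq table, a GAS element (TTCNNNGAA) in 8.30%, and the κB motif GGGANTTTC in 1.11%. Matches of different motifs can overlap and were counted for each. Of the genes opposite to rows that rose at least 8-fold, 58 of 102 had a promoter in the table, under the 80% set for a comparison, so the comparison of shares is void. The 74 promoters matched held an ISRE core in 20.3%, a GAS element in 8.11% and the κB motif in 4.05%. Of the genes opposite to rows that fell at least 8-fold, 98 of 128 matched, also under 80%, and the 136 promoters held an ISRE core in 3.68%. For genes opposite to all rows that rose or fell, the share was 8.31% and 4.77%. For the genes of the 8-fold rows themselves it was 15.4% among rises and 4.35% among falls. These sets also matched under 80%, and no difference between the shares is read. All sets took rows with 1 opposite gene. A match describes the letters in these windows and not a bound site.

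Cytokine genes were mostly seen through the opposite strand. Of 25 genes, 4 own rows were tested, of which 2 rose and 2 fell (median 0.53), and all 5 opposite rows tested rose (median 4.46). Under library totals 1 own row rose and 2 fell. Gm16712, opposite to Ebi3, a subunit that interleukin-27 shares with interleukin-35, had 1992, 1870, 1918 and 1750 CPM in the M1 vehicle libraries, against 345, 374, 322 and 304 CPM in the M0 vehicle libraries (2.48, SE 0.07). The groups did not overlap. Il1bos, opposite to Il1b, averaged 85.01 ± 34.3 CPM in M1 vehicle and 0.58 ± 0.732 CPM in M0 vehicle (SD, n = 4 each), and Il1b's own row 24.7 ± 6.61 CPM in M1 vehicle and 0.2 ± 0.4 CPM in M0 vehicle. The interleukin-18 antagonist gene Il18bp went opposite ways. Its own row had 37.6, 41.8, 39 and 60.04 CPM in the M1 vehicle libraries, against 147, 109, 106 and 96.9 CPM in the M0 vehicle libraries (-1.36, SE 0.18), while Numa1, opposite to it, had 1158, 1150, 1303 and 1196 CPM in the M1 vehicle libraries, against 55.4, 46.2, 64.6 and 52.05 CPM in the M0 vehicle libraries (4.46, SE 0.10). Il27's own row averaged 95.3 ± 7.27 CPM in M1 vehicle and 121 ± 8.64 CPM in M0 vehicle (-0.34, SE 0.12, adjusted p = 0.0144), and Apobr, opposite to it, 166 ± 10.6 CPM in M1 vehicle and 18.01 ± 5.22 CPM in M0 vehicle (3.20, SE 0.19). The fall of the Il27 row was lost with DESeq2 (-0.31, adjusted p = 0.0525) and in edgeR without M1 vehicle 4 (-0.29, adjusted p = 0.0523) or M0 vehicle 1 (-0.28, adjusted p = 0.0814).

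Pattern recognition and inflammasome genes had 7 of 35 own rows tested, of which 6 rose and none fell (median 3.01), and 4 opposite rows, of which 3 rose and 1 fell (median 1.29). Under library totals 5 own rows rose and 1 fell, and 2 opposite rows rose and 1 fell. Gm43963, opposite to Irak2, a kinase of Toll-like receptor signaling, averaged 1494 ± 49.99 CPM in M1 vehicle and 351 ± 17.9 CPM in M0 vehicle (2.09, SE 0.08). Myd88, the adaptor of most Toll-like receptors, rose in its own row (50.2 ± 15.9 CPM in M1 vehicle and 17.6 ± 4.28 CPM in M0 vehicle, 1.5, SE 0.27) and in Acaa1a, opposite to it (1288 ± 68.9 CPM in M1 vehicle and 311 ± 18.3 CPM in M0 vehicle, 2.05, SE 0.07). The row that fell, Gm45205, is opposite to Pycard, the inflammasome adaptor ASC, and had 367, 373, 311 and 339.9 CPM in the M1 vehicle libraries, against 701, 687, 654 and 686 CPM in the M0 vehicle libraries (-0.97, SE 0.08). The M0 vehicle libraries were all higher. Irak4's own row, opposite to Twf1, averaged 939.6 ± 50.2 CPM in M1 vehicle and 789.7 ± 29.5 CPM in M0 vehicle, and its small rise (0.25, SE 0.07) was -0.23 when scaled to library totals.

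Interferon receptors, STATs and IRFs had 5 of 7 tested own rows that rose (median 1.12) and 7 of 10 opposite rows (median 1.1) in a list of 26, and none fell. With counts scaled to library totals 3 rose and 2 fell in own rows, and 6 rose and 3 fell in opposite rows. Gm17334, opposite to Irf1, a factor induced by IFN-γ, had 4779, 4242, 5221 and 4757 CPM in the M1 vehicle libraries, against 215, 250.3, 182 and 223 CPM in the M0 vehicle libraries (4.45, SE 0.11, adjusted p = 1.05e-19). Irf1's own row also rose and averaged 14.1 ± 5.99 CPM in M1 vehicle and 3.38 ± 1.38 CPM in M0 vehicle (2.02, SE 0.48). Phrf1, opposite to Irf7, the main inducer of interferon-α genes, had 103, 76.2, 90.3 and 58.97 CPM in the M1 vehicle libraries, against 2.44, 0.797, 3.04 and 0.801 CPM in the M0 vehicle libraries (5.43, SE 0.38), against 2.27 (SE 0.31) in Irf7's own row. In both pairs the row with more counts in M1 vehicle had the larger change. 9330175E14Rik, opposite to Nlrc5, a coactivator of class I genes, averaged 320.5 ± 48.9 CPM in M1 vehicle and 13.5 ± 0.922 CPM in M0 vehicle (4.56, SE 0.20), and Dexi, opposite to Ciita, the coactivator of class II genes, 52.99 ± 13.3 CPM in M1 vehicle and 2.39 ± 0.961 CPM in M0 vehicle (4.42, SE 0.37). Irf5's own row had 524 CPM in M1 vehicle and 450.1 CPM in M0 vehicle (0.22, SE 0.07, and -0.26 when scaled to library totals), and Tnpo3, opposite to it, 43.9 CPM in M1 vehicle and 20.6 CPM in M0 vehicle (1.08, SE 0.23).

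Of 20 NF-κB pathway genes, 2 of 3 tested own rows rose and 1 fell (median 1.27), and 3 of 4 opposite rows rose and 1 fell (median 2.45). Psd, opposite to Nfkb2, which encodes the p100 precursor of p52, had 1213, 1241, 1214 and 1273 CPM in the M1 vehicle libraries, against 196, 238, 208 and 179 CPM in the M0 vehicle libraries (2.59, SE 0.09), and Nfkb2's own row averaged 73.5 ± 15.1 CPM in M1 vehicle and 30.5 ± 3.47 CPM in M0 vehicle (1.27, SE 0.19). Gm28914, opposite to the kinase gene Ikbke, averaged 286 ± 32 CPM in M1 vehicle and 57.4 ± 6.68 CPM in M0 vehicle (2.31, SE 0.13). Ikbkg, the regulatory subunit of the IκB kinase, and G6pdx, the first enzyme of the pentose phosphate pathway, are opposite to each other. Ikbkg had 1842, 1813, 1887 and 1855 CPM in the M1 vehicle libraries, against 780.4, 633, 665 and 662 CPM in the M0 vehicle libraries (1.43, SE 0.07) and G6pdx 288, 365, 329.9 and 292 CPM in the M1 vehicle libraries, against 53.8, 47.8, 52.5 and 51.2 CPM in the M0 vehicle libraries (2.63, SE 0.12). Both rows of this pair rose without overlap. The fall was at Ripk1, a kinase of TNF signaling, on both strands, with 6.17 ± 2.22 CPM in M1 vehicle and 18.98 ± 11.3 CPM in M0 vehicle in its own row (-1.62, SE 0.50) and 126 ± 14.5 CPM in M1 vehicle and 414 ± 71.2 CPM in M0 vehicle in Serpinb6a opposite to it (-1.71, SE 0.14).

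Feedback inhibitors rose in 4 of 5 tested own rows (median 1.78) and 3 of 4 opposite rows (median 4.06), of 22 genes, and none fell. Under library totals 3 own rows rose and 1 opposite row fell. Cd274, which encodes PD-L1, had 134, 107, 148 and 97.6 CPM in the M1 vehicle libraries, against 0.815, 1.59, 1.52 and 0.801 CPM in the M0 vehicle libraries (6.54, SE 0.33). Irak3, an inhibitor of Toll-like receptor signaling, averaged 115 ± 7.25 CPM in M1 vehicle and 22.5 ± 3.94 CPM in M0 vehicle (2.35, SE 0.17), and Gm16175, opposite to Bcl3, a nuclear IκB protein, 336 ± 32.2 CPM in M1 vehicle and 63.5 ± 10.3 CPM in M0 vehicle (2.40, SE 0.14). Irak3 is opposite to Tmbim4, whose row was not tested. Gm17041, opposite to Cish, a suppressor of cytokine signaling, averaged 58.2 ± 5.23 CPM in M1 vehicle and 1 ± 1.51 CPM in M0 vehicle (5.72, SE 0.54).

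Genes of antigen presentation by MHC class I rose on both readings. Of 23 genes, 10 of 13 tested own rows (median 2.26) and all 6 distinct opposite rows tested rose (median 3.49 over the 7 genes), and none fell. Under library totals 8 own rows rose and none fell. Gm20496 (chr17:34199316-34205449, minus strand), opposite to Psmb8, a subunit of the immunoproteasome, and to Tap2, a peptide transporter subunit, had 20976, 18972, 19378 and 18415 CPM in the M1 vehicle libraries, against 1799, 1781, 1669 and 1647 CPM in the M0 vehicle libraries (3.49, SE 0.07, adjusted p = 1.17e-21). Psmb8's own row had 6.83 CPM in M1 vehicle and 1.59 CPM in M0 vehicle, and Tap2's own row 9.23 CPM in M1 vehicle and 0.97 CPM in M0 vehicle. Gm19412, opposite to Tapbp, which encodes the peptide-loading factor tapasin, had 11513, 10996, 10728 and 11198 CPM in the M1 vehicle libraries, against 1647, 1628, 1775 and 1550 CPM in the M0 vehicle libraries (2.75, SE 0.06), and Tapbp's own row 0.82 (SE 0.25). Gm11131, opposite to the class I gene H2-Q4, had 10072, 8776, 8914 and 8970 CPM in the M1 vehicle libraries, against 487, 744, 754 and 525 CPM in the M0 vehicle libraries (3.87, SE 0.13), against 3.19 (SE 0.22) in H2-Q4's own row. In each of these opposite rows the M1 vehicle libraries were several-fold above the M0 vehicle libraries. Psmb9, another immunoproteasome subunit, and Tap1 are opposite to each other and both rose, with 639 ± 47.8 CPM in M1 vehicle and 74.4 ± 7.94 CPM in M0 vehicle for Psmb9 (3.10, SE 0.10) and 119.7 ± 22.1 CPM in M1 vehicle and 1.58 ± 1.73 CPM in M0 vehicle for Tap1 (6.13, SE 0.37). Psme1, a subunit of the proteasome activator, was not called in its own row (9.35 CPM in M1 vehicle and 7.66 CPM in M0 vehicle, 0.27, SE 0.40), while Emc9 opposite to it averaged 735 ± 75.7 CPM in M1 vehicle and 94.5 ± 16.4 CPM in M0 vehicle and rose (2.96, SE 0.11). H2-Q4 belongs to a multigene family, and how shared reads were counted is not stated. Class II and costimulation genes were largely untested. Of 19 genes, 1 of 2 own rows and 2 of 3 opposite rows rose, and none fell. Gm37787, opposite to the SLAM family receptor gene Slamf7, had 3200, 2747, 3389 and 2946 CPM in the M1 vehicle libraries, against 73.3, 54.2, 60.8 and 60.1 CPM in the M0 vehicle libraries (5.63, SE 0.12), and BC051537, opposite to H2-Oa, which encodes a chain of the peptide-exchange inhibitor H2-O, averaged 139 ± 10.8 CPM in M1 vehicle with 3 counts in all of M0 vehicle.

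**Figure D3:**
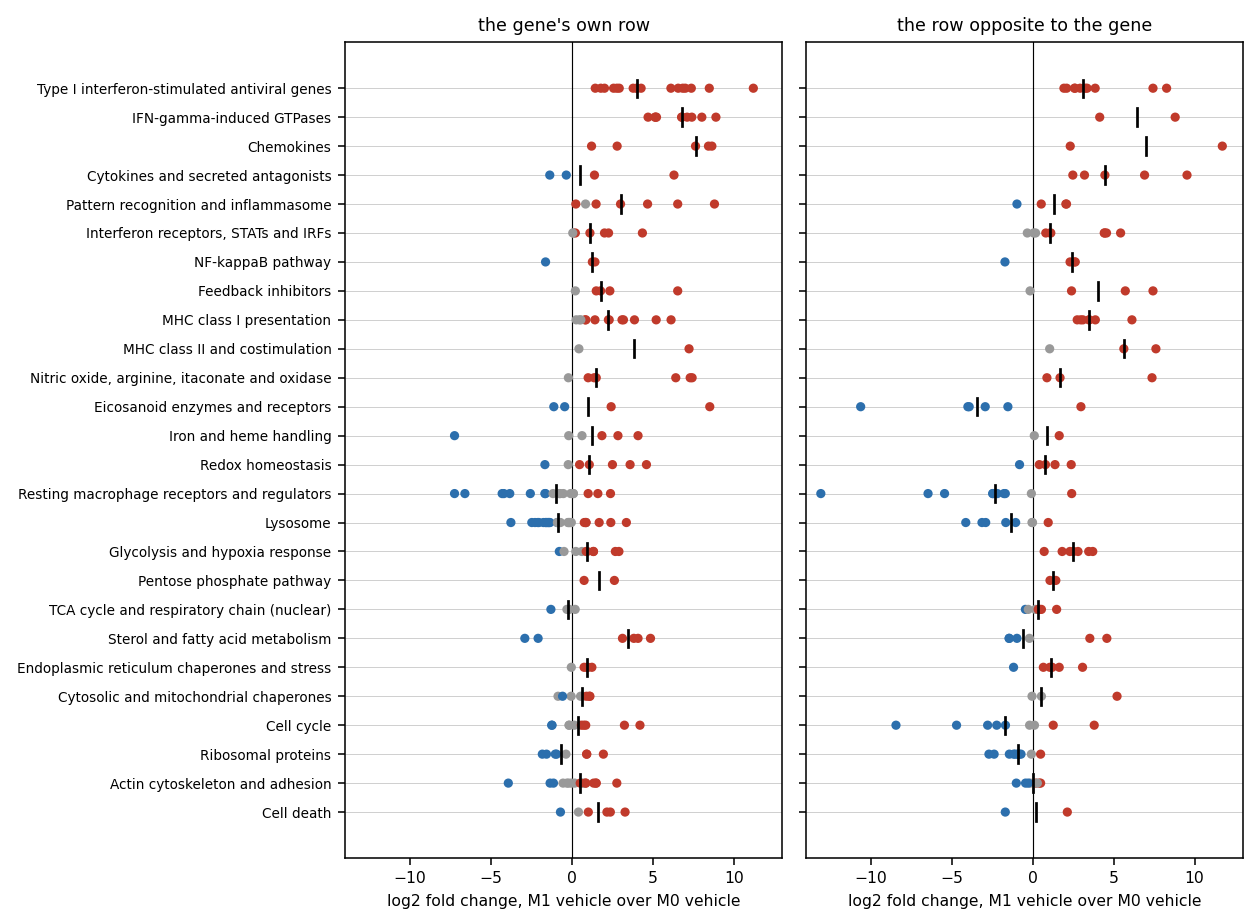
Log2 fold change of M1 vehicle over M0 vehicle for the tested members of each gene list, read by the gene's own row (left) and by the row opposite to the gene (right). Points are rows (red rose, blue fell, grey not called), and the black bar is the list's median, which is 4.03 and 3.08 for the interferon-stimulated list at the top, -0.96 and -2.32 for the resting macrophage list and -0.84 and -1.36 for the lysosome list.

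Nitric oxide, arginine and itaconate genes and subunits of the NADPH oxidase had 6 of 7 tested own rows that rose (median 1.51) and all 3 opposite rows (median 1.69), of 17 genes, and none fell. Under library totals 5 own rows rose and 1 fell, and all 3 opposite rows rose. Gm26584, opposite to the arginine transporter gene Slc7a2, had 5113, 5438, 5465 and 5703 CPM in the M1 vehicle libraries, against 30.9, 31.1, 31.9 and 36.8 CPM in the M0 vehicle libraries (7.37, SE 0.10, adjusted p = 4.67e-24). Slc7a2's own row averaged 81.3 CPM in M1 vehicle and held 2 counts in all of M0 vehicle. Acod1, which makes itaconate, averaged 54.2 ± 5 CPM in M1 vehicle and held 1 count in all of M0 vehicle. Gtf2ird2, opposite to the oxidase subunit gene Ncf1, had 9718, 9083, 9252 and 9506 CPM in the M1 vehicle libraries, against 2568, 3120, 3231 and 2749 CPM in the M0 vehicle libraries (1.69, SE 0.07). Ncf1's own row rose by 1.38 (SE 0.38), and Cybb, the catalytic subunit, which has no gene opposite, averaged 41.3 ± 5.75 CPM in M1 vehicle and 14.4 ± 5.75 CPM in M0 vehicle (1.51, SE 0.33). Arg2, the mitochondrial arginase, was not called in its own row (24.5 CPM in M1 vehicle and 28.3 CPM in M0 vehicle, -0.21, SE 0.22), while Vti1b opposite to it rose (99.3 CPM in M1 vehicle and 53.97 CPM in M0 vehicle, 0.88, SE 0.15).

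Eicosanoid enzymes and receptors mostly fell on the opposite reading. Of 25 genes, 5 of 6 opposite rows fell and 1 rose (median -3.42), and of 4 own rows 2 rose and 2 fell (median 1.00). Gm19719, opposite to Alox5ap, which encodes the 5-lipoxygenase activating protein, had 1634, 1932, 1429 and 1437 CPM in the M1 vehicle libraries, against 4791, 4715, 4114 and 4894 CPM in the M0 vehicle libraries (-1.53, SE 0.10, adjusted p = 1.11e-11). Gm26542, opposite to the leukotriene C4 synthase gene Ltc4s, averaged 4.89 ± 2.69 CPM in M1 vehicle and 80.7 ± 10.7 CPM in M0 vehicle (-4.00, SE 0.29), and Gm43621, opposite to Ptgs1, was at 0 in M1 vehicle as given above. Neither row could pass the count filter through M1 vehicle, so their falls were fixed by it. The row that rose was 1700071M16Rik, opposite to Pla2g7, a phospholipase that inactivates platelet-activating factor, with 5931, 6229, 6016 and 6480 CPM in the M1 vehicle libraries, against 834, 744, 684 and 854 CPM in the M0 vehicle libraries (2.98, SE 0.08). In own rows, Ptgs2, the inducible cyclooxygenase-2, averaged 43.01 CPM in M1 vehicle against 0 counts in M0 vehicle (at least 72.3-fold higher), and the thromboxane synthase gene Tbxas1 averaged 10.1 ± 6.19 CPM in M1 vehicle and 1.79 ± 0.413 CPM in M0 vehicle and rose (2.43, SE 0.67). Prostaglandin genes thus moved both ways. Ptger4, a receptor for prostaglandin E2, averaged 74.95 ± 22.9 CPM in M1 vehicle and 163 ± 16.3 CPM in M0 vehicle in its own row (-1.11, SE 0.15). It is opposite to Ttc33, whose row was not tested. The diacylglycerol lipase gene Daglb and the small GTPase gene Rac1 are opposite to each other and both fell, by different amounts. Daglb averaged 1614 ± 90.9 CPM in M1 vehicle and 2187 ± 128 CPM in M0 vehicle (-0.44, SE 0.06) and Rac1 68.8 ± 10.7 CPM in M1 vehicle and 1036 ± 92.6 CPM in M0 vehicle (-3.92, SE 0.12). Of the lipoxygenases at the locus replaced in these mice and beside it, the Alox15 row of the mouse gene was empty in all 8 libraries (0 counts), and that of Alox12 had 3 counts in M1 vehicle and 2 in M0 vehicle. Neither was tested, and the human gene has no row.

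Iron and heme genes had 3 of 6 own rows that rose and 1, Cd163, that fell (median 1.25), of 23 genes, and 1 of 2 opposite rows that rose. Under library totals the other opposite row fell, and 3 own rows rose and 2 fell. Fth1, the ferritin heavy chain, had 324, 248, 264 and 249 CPM in the M1 vehicle libraries, against 42.4, 27.9, 44.9 and 35.2 CPM in the M0 vehicle libraries (2.85, SE 0.16), and Fbxl5, which targets the iron regulatory protein IRP2 for degradation, 293, 348, 304 and 288 CPM in the M1 vehicle libraries, against 17.1, 19.9, 16.7 and 18.4 CPM in the M0 vehicle libraries (4.09, SE 0.15). Both separated the groups. Fbxl5 is opposite to Bst1, whose row was not tested. Gm5475, opposite to the iron transporter gene Slc11a2, averaged 272 ± 23.01 CPM in M1 vehicle and 87.05 ± 11.4 CPM in M0 vehicle (1.64, SE 0.12), and Hmox1, heme oxygenase 1, 11.8 ± 3.94 CPM in M1 vehicle and 3.16 ± 1.92 CPM in M0 vehicle (1.86, SE 0.45). In redox homeostasis, 5 of 7 tested own rows rose and 1 fell (median 1.08), and 4 of 5 opposite rows rose and 1 fell (median 0.79), of 25 genes. On library totals, 3 own rows rose and 2 fell, and 2 opposite rows rose and 1 fell. Gm16754, opposite to Keap1, the repressor of the antioxidant factor Nrf2, averaged 2584 ± 197 CPM in M1 vehicle and 496 ± 19.03 CPM in M0 vehicle (2.38, SE 0.07), and Keap1's own row 37.6 ± 9.23 CPM in M1 vehicle and 2.99 ± 1.82 CPM in M0 vehicle (3.60, SE 0.36). Trmt112, opposite to the peroxiredoxin gene Prdx5, averaged 494 ± 29.5 CPM in M1 vehicle and 189 ± 17.7 CPM in M0 vehicle (1.38, SE 0.09), and Prdx1 44.5 ± 10.9 CPM in M1 vehicle and 7.77 ± 6.69 CPM in M0 vehicle (2.51, SE 0.37). Gm15441, opposite to Txnip, an inhibitor of thioredoxin, had 3506, 3909, 3728 and 3502 CPM in the M1 vehicle libraries, against 6571, 6848, 5755 and 6549 CPM in the M0 vehicle libraries and fell (-0.81, SE 0.07).

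Receptors and regulators of the resting macrophage fell more often than they rose. Of 46 genes, 8 of 18 own rows fell and 3 rose (median -0.96), and 8 of 10 opposite rows fell and 1 rose (median -2.32). With library totals as the scaling, 14 own rows fell and 2 rose, and 9 opposite rows fell and 1 rose. Gm10602, opposite to the folate receptor gene Folr2, had 1112, 1045, 1017 and 1088 CPM in the M1 vehicle libraries, against 5202, 4725, 4974 and 4476 CPM in the M0 vehicle libraries (-2.18, SE 0.07, adjusted p = 3.75e-17). Gm26728, opposite to the tetraspanin gene Cd9, averaged 603 ± 87.6 CPM in M1 vehicle and 2058 ± 109.7 CPM in M0 vehicle (-1.77, SE 0.08). Tmem255b, opposite to Gas6, a ligand that bridges dying cells to the receptor Mertk, had 5.01, 28.2, 11.1 and 21.4 CPM in the M1 vehicle libraries, against 711, 859, 613 and 706 CPM in the M0 vehicle libraries (-5.44, SE 0.24). In these rows every M1 vehicle library lay below every M0 vehicle library. Gm45091, opposite to the myeloid factor gene Cebpa, spread widely between M0 vehicle libraries and averaged 4.1 ± 2.74 CPM in M1 vehicle and 368 ± 345 CPM in M0 vehicle (-6.46, SE 0.99), and Cebpa's own row 2.27 ± 2.3 CPM in M1 vehicle and 14.2 ± 6.48 CPM in M0 vehicle (-2.56, SE 0.62). The related factor Cebpb rose on both strands, with 13.96 ± 0.748 CPM in M1 vehicle and 2.54 ± 2.18 CPM in M0 vehicle in its own row (2.39, SE 0.51) and 1370 ± 165 CPM in M1 vehicle and 258 ± 88.1 CPM in M0 vehicle in Tmem189 opposite to it (2.41, SE 0.19). Own rows with few counts included Apoe, the apolipoprotein E gene, with 1.23 ± 2.46 CPM in M1 vehicle and 23.3 ± 4.57 CPM in M0 vehicle (-4.19, SE 0.65), and Mef2c, a transcription factor gene, with 0 counts in M1 vehicle and 11.2 ± 5.98 CPM in M0 vehicle (at least 12.9-fold lower). Cebpa, Apoe and Mef2c were chosen after their values were seen. Maf, a factor of resting macrophages, was not called on either strand, with 1812 ± 96.6 CPM in M1 vehicle and 1911 ± 344 CPM in M0 vehicle in Gm15655 opposite to it (-0.08, SE 0.10).

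Lysosomal genes fell more often than they rose. Of 42 genes, 13 of 28 own rows fell and 6 rose (median -0.84), and 5 of 8 opposite rows fell and 1 rose (median -1.36). Under library totals, 19 own rows fell and 4 rose, and 6 opposite rows fell and 1 rose. Fdft1, opposite to the cysteine protease gene Ctsb and itself the gene of squalene synthase, had 1027, 929, 862 and 848 CPM in the M1 vehicle libraries, against 7656, 6920, 6191 and 6615 CPM in the M0 vehicle libraries (-2.90, SE 0.07, adjusted p = 1.57e-19), and Ctsb's own row averaged 35.1 ± 6.41 CPM in M1 vehicle and 96.2 ± 34.1 CPM in M0 vehicle (-1.45, SE 0.22). Card14, opposite to the sulfamidase gene Sgsh, had 72.6, 81.1, 78.01 and 72.9 CPM in the M1 vehicle libraries, against 1361, 1377, 1326 and 1272 CPM in the M0 vehicle libraries (-4.13, SE 0.09). Both opposite rows fell 7-fold or more. Ctsa, a protective protein of the lysosome, and the phospholipid transfer protein gene Pltp are opposite to each other and both fell, with 1420 ± 159 CPM in M1 vehicle and 7841 ± 846 CPM in M0 vehicle for Ctsa (-2.47, SE 0.09) and 566 ± 37.6 CPM in M1 vehicle and 1791 ± 93.5 CPM in M0 vehicle for Pltp (-1.66, SE 0.07). Npc1, a cholesterol transporter of lysosomes, rose in its own row (106 ± 5.18 CPM in M1 vehicle and 62.5 ± 3.38 CPM in M0 vehicle, 0.77, SE 0.12) and fell in Gm15956 opposite to it (377 ± 36.4 CPM in M1 vehicle and 782 ± 53.3 CPM in M0 vehicle, -1.05, SE 0.08). Nelfcd, opposite to the protease gene Ctsz, averaged 368 ± 44.05 CPM in M1 vehicle and 188 ± 10.7 CPM in M0 vehicle and rose (0.96, SE 0.10).

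Glycolysis and hypoxia-response genes rose in 6 of 10 own rows, with 1 that fell (median 0.92), and in all 7 opposite rows (median 2.52), of 26 genes. Under library totals 4 own rows rose and 2 fell, and all 7 opposite rows rose. Fam57b, opposite to the aldolase gene Aldoa, had 16925, 16877, 15403 and 15079 CPM in the M1 vehicle libraries, against 4482, 4658, 4467 and 4598 CPM in the M0 vehicle libraries (1.82, SE 0.06, adjusted p = 1.29e-17). Gm15283, opposite to the hypoxia factor gene Hif1a, had 5591, 5743, 6234 and 6308 CPM in the M1 vehicle libraries, against 854, 866, 859 and 843 CPM in the M0 vehicle libraries (2.80, SE 0.07). Gm12868, opposite to the glucose transporter gene Slc2a1, had 1603, 1780, 1507 and 1559 CPM in the M1 vehicle libraries, against 115, 124, 130.0 and 124 CPM in the M0 vehicle libraries (3.71, SE 0.07). The 3 rows separated the groups without overlap. Gm45507, opposite to the mitophagy receptor gene Bnip3, averaged 3163 ± 360.3 CPM in M1 vehicle and 640.2 ± 26.1 CPM in M0 vehicle (2.30, SE 0.08), Gm26762, opposite to the isomerase gene Gpi1, 4489 ± 378 CPM in M1 vehicle and 2735 ± 225 CPM in M0 vehicle (0.71, SE 0.07), and Unc5a, opposite to the hexokinase gene Hk3, 267 ± 4.97 CPM in M1 vehicle and 24.2 ± 2.98 CPM in M0 vehicle (3.46, SE 0.14; SD, n = 4 each). The own row of Gapdh, with 9.39 CPM in M1 vehicle and 13.1 CPM in M0 vehicle, was not called (-0.48, SE 0.35). Iffo1, opposite to Gapdh, was not tested. In the pentose phosphate pathway, all of the 2 own and 2 opposite rows tested of 7 genes rose, at G6pdx as given above and at the epimerase gene Rpe (95.4 ± 13 CPM in M1 vehicle and 56.5 ± 1.78 CPM in M0 vehicle, 0.76, SE 0.14). Kansl1l, opposite to Rpe, also rose. Under library totals 1 own row and 2 opposite rows of this list rose.

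Nuclear genes of the TCA cycle and the respiratory chain had medians near 0. Of 33 genes, none of 4 own rows rose and 1 fell (median -0.22), and 4 of 7 opposite rows rose and 1 fell (median 0.34). Scaled to library totals, 1 opposite row rose and 3 fell (median -0.13), so the direction of this list depends on the scaling. Gm26631, opposite to the cytochrome oxidase subunit gene Cox5a, had 3663, 3782, 3494 and 3344 CPM in the M1 vehicle libraries, against 1385, 1312, 1174 and 1257 CPM in the M0 vehicle libraries (1.48, SE 0.07), above 0.48 and thus higher under both scalings. Ino80dos, opposite to the complex I subunit gene Ndufs1, averaged 259.8 ± 23.96 CPM in M1 vehicle and 355 ± 16.7 CPM in M0 vehicle and fell (-0.45, SE 0.09), and Mdh1, cytosolic malate dehydrogenase, 6.58 ± 3.22 CPM in M1 vehicle and 16.5 ± 4.83 CPM in M0 vehicle (-1.29, SE 0.38). Mdh1 is opposite to Wdpcp, whose row was not tested. On the mitochondrial genome 14 rows were tested, of which 9 fell and 1 rose. The mt-Nd6 row, of the protein gene on the light strand, averaged 5886 ± 789 CPM in M1 vehicle and 10348 ± 1020 CPM in M0 vehicle (-0.81, SE 0.11). The row that rose, the transfer RNA row mt-Tp, averaged 841 ± 73.9 CPM in M1 vehicle and 578 ± 51.7 CPM in M0 vehicle (0.54, SE 0.09). These minus-strand rows lay above the plus-strand rows mt-Nd5 (531 CPM in M1 vehicle and 405 CPM in M0 vehicle) and mt-Co1 (58.7 and 68.1 CPM). No opposite gene was read for mitochondrial rows, so these values describe rows and not levels of the named genes.

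Sterol and fatty acid genes moved both ways. Of 35 genes, 4 of 6 own rows rose and 2 fell (median 3.48), and 2 of 6 opposite rows rose and 3 fell (median -0.58). Under library totals 2 opposite rows rose and 4 fell. Gm26902, opposite to Ch25h, which makes 25-hydroxycholesterol, had 1188, 799.7, 1017 and 879 CPM in the M1 vehicle libraries, against 58.6, 94.1, 86.7 and 95.3 CPM in the M0 vehicle libraries (3.53, SE 0.21), and Ch25h's own row averaged 42.3 ± 10.4 CPM in M1 vehicle and 4.73 ± 1.32 CPM in M0 vehicle (3.13, SE 0.37). Acsl1, which activates fatty acids, rose in its own row (32.01 ± 7.43 CPM in M1 vehicle and 0.981 ± 1.19 CPM in M0 vehicle, 4.86, SE 0.53) and in Gm45244 opposite to it (106 ± 17.1 CPM in M1 vehicle and 4.31 ± 2.89 CPM in M0 vehicle, 4.58, SE 0.30). The sterol synthesis gene Sqle, which encodes squalene epoxidase, averaged 29.6 ± 6.41 CPM in M1 vehicle and 127 ± 15.2 CPM in M0 vehicle and fell (-2.08, SE 0.16). Fdft1, which is opposite to Ctsb, also fell as given above. Nr1h3, which encodes the liver X receptor α, averaged 49.1 ± 9.28 CPM in M1 vehicle and 2.76 ± 0.695 CPM in M0 vehicle and rose (4.09, SE 0.38).

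Endoplasmic reticulum chaperones and stress genes rose in 4 of 5 own rows (median 0.94) and 5 of 6 opposite rows, with 1 that fell (median 1.14), of 25 genes. Under library totals 2 own rows rose and none fell, and 4 opposite rows rose and 1 fell. 1810014B01Rik, opposite to the chaperone gene Hsp90b1, had 10551, 10725, 10325 and 11003 CPM in the M1 vehicle libraries, against 6789, 6715, 6273 and 7164 CPM in the M0 vehicle libraries (0.66, SE 0.05), while Hsp90b1's own row was not called (34.7 CPM in M1 vehicle and 35.2 CPM in M0 vehicle, -0.03, SE 0.25). 4930524O07Rik, opposite to the secreted stress protein gene Manf, averaged 1169 ± 98.7 CPM in M1 vehicle and 374 ± 85.6 CPM in M0 vehicle (1.64, SE 0.13), and Mars, opposite to the stress factor gene Ddit3, 203 ± 28.6 CPM in M1 vehicle and 23.96 ± 4.62 CPM in M0 vehicle (3.08, SE 0.17). The row that fell was Gm43292, opposite to Eif2ak3, the kinase PERK, with 124 ± 11.01 CPM in M1 vehicle and 283 ± 18.1 CPM in M0 vehicle (-1.18, SE 0.12). Hspa5, the chaperone BiP, which has no gene opposite, averaged 34.1 ± 9.41 CPM in M1 vehicle and 14.5 ± 7.98 CPM in M0 vehicle (1.24, SE 0.31). Cytosolic and mitochondrial chaperones had 3 of 8 own rows that rose and 1 that fell (median 0.61), and 1 of 3 opposite rows that rose (median 0.54), of 15 genes. Under library totals 2 own rows rose and 2 fell. That row was Gm20481, opposite to the inducible HSP70 gene Hspa1a, with 804, 872, 611 and 639 CPM in the M1 vehicle libraries, against 23.6, 20.7, 16.7 and 17.6 CPM in the M0 vehicle libraries (5.21, SE 0.19). Its M0 vehicle libraries were all low.

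Cell cycle genes fell on the opposite reading in 5 of 9 rows and rose in 2 (median -1.68), while 5 of 10 own rows rose and 2 fell (median 0.38), of 36 genes. Scaled to library totals, 3 own rows rose and 5 fell (median -0.10), and 2 opposite rows rose and 7 fell. Gm43126, opposite to the cyclin D2 gene Ccnd2, had 1792, 1576, 1890 and 1631 CPM in the M1 vehicle libraries, against 135, 139, 107 and 113 CPM in the M0 vehicle libraries (3.80, SE 0.11). LTO1, opposite to the cyclin D1 gene Ccnd1, had 722, 547, 732 and 600.4 CPM in the M1 vehicle libraries, against 1993, 2022, 2126 and 2197 CPM in the M0 vehicle libraries (-1.68, SE 0.08), and Ccnd1's own row went the other way (122 ± 19.9 CPM in M1 vehicle and 66.97 ± 5.54 CPM in M0 vehicle, 0.86, SE 0.13). Bysl, opposite to the cyclin D3 gene Ccnd3, averaged 503 ± 21.9 CPM in M1 vehicle and 208 ± 30.7 CPM in M0 vehicle and rose (1.27, SE 0.11), and Ccnd3's own row averaged 3.84 ± 2.48 CPM in M1 vehicle and 9.07 ± 5 CPM in M0 vehicle and fell (-1.24, SE 0.54), with overlapping libraries. That call was lost with DESeq2 (adjusted p = 0.0715), limma-voom (0.112) and RLE scaling (0.0545), and in edgeR without M1 vehicle 2 or 4 or M0 vehicle 2, 3 or 4 (adjusted p = 0.0688 to 0.167). The D cyclins thus differed in direction between members and between strands. Ints8, opposite to the cyclin E2 gene Ccne2, averaged 3.41 ± 2.02 CPM in M1 vehicle and 24.5 ± 7.6 CPM in M0 vehicle (-2.78, SE 0.44), and Gm44985, opposite to the mitotic kinase gene Plk1 and chosen after its values were seen, 0.586 ± 0.678 CPM in M1 vehicle and 18.1 ± 3.84 CPM in M0 vehicle (-4.70, SE 0.59). The Exosc9 row, opposite to Ccna2, had no count in M1 vehicle as given above, while Ccna2's own row was not called (80.2 CPM in M1 vehicle and 71.7 CPM in M0 vehicle, 0.16, SE 0.14). The Cdk4 row, of the kinase that pairs with D cyclins, averaged 1906 ± 157 CPM in M1 vehicle and 1265 ± 96.5 CPM in M0 vehicle (0.59, SE 0.07). It is opposite to Tspan31, whose row was not tested.

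Ribosomal protein genes fell on the opposite reading in 9 of 11 rows and rose in 1 (median -0.91), and in own rows 4 of 8 fell and 3 rose (median -0.65), of 79 genes. With scaling to totals, 10 opposite rows fell and none rose, and 5 own rows fell and 2 rose. Tlcd1, opposite to Rpl23a, had 2234, 2296, 2146 and 2106 CPM in the M1 vehicle libraries, against 4352, 3989, 4066 and 4086 CPM in the M0 vehicle libraries (-0.91, SE 0.05, adjusted p = 7.04e-13). Wdr38, opposite to Rpl35, averaged 1998 ± 89.6 CPM in M1 vehicle and 3704 ± 223 CPM in M0 vehicle (-0.89, SE 0.06), and Cand2, opposite to Rpl32, 356 ± 17.9 CPM in M1 vehicle and 798 ± 40.2 CPM in M0 vehicle (-1.17, SE 0.07). The row that rose was Nkiras1, opposite to Rpl15, by 0.49 (SE 0.07) on the log2 scale, and by 0.01 when scaled to library totals. Rpl18's own row rose (710.1 ± 35.6 CPM in M1 vehicle and 374 ± 33.5 CPM in M0 vehicle, 0.92, SE 0.08), while Sphk2, opposite to it, fell (78.5 ± 13.8 CPM in M1 vehicle and 408 ± 52.5 CPM in M0 vehicle, -2.38, SE 0.15).

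Actin and adhesion genes had 7 of 17 own rows that rose and 3 that fell (median 0.52), and 3 of 8 opposite rows in each direction (median 0.03), of 30 genes. Scaled to library totals, 5 own rows rose and 4 fell, and none of the opposite rows rose and 5 fell (median -0.45). Gm37401, opposite to the GTPase gene Rhoa, averaged 4802 ± 272 CPM in M1 vehicle and 3430 ± 205 CPM in M0 vehicle (0.49, SE 0.06). Lcp1, which encodes L-plastin, rose in its own row (173 ± 12.01 CPM in M1 vehicle and 60.8 ± 11.2 CPM in M0 vehicle, 1.51, SE 0.16), and Ap3m1, opposite to the vinculin gene Vcl, fell (254 ± 18.3 CPM in M1 vehicle and 514 ± 80.4 CPM in M0 vehicle, -1.01, SE 0.12). Gm15629, opposite to Lcp1, also rose. Of 20 cell death genes, 4 of 6 own rows rose and 1 fell (median 1.59), and of 2 opposite rows 1 rose and 1 fell. Ggnbp1, opposite to the pro-apoptotic gene Bak1, had 3727, 3637, 3848 and 3500 CPM in the M1 vehicle libraries, against 827, 814, 948 and 757 CPM in the M0 vehicle libraries (2.14, SE 0.07), and D630008O14Rik, opposite to the anti-apoptotic gene Bcl2, averaged 20.6 ± 6.84 CPM in M1 vehicle and 67.2 ± 11.9 CPM in M0 vehicle and fell (-1.69, SE 0.23). Cflar, an inhibitor of caspase-8, averaged 43.6 ± 9.27 CPM in M1 vehicle and 4.33 ± 2.17 CPM in M0 vehicle (3.29, SE 0.31), and the pro-apoptotic gene Bid 82.7 ± 5.87 CPM in M1 vehicle and 135 ± 14.8 CPM in M0 vehicle and fell (-0.70, SE 0.12). Bid is opposite to Bcl2l13, whose row was not tested.

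Rows on opposite strands of the same place did not simply move together. There were 679 pairs of tested rows (1230 rows) whose exons overlap by at least 1 base. In 101 pairs both rows rose, in 110 both fell, and in 97 they were called in opposite directions. In 271 pairs 1 row was called and in 100 none. Across pairs, which are not replicates and share libraries, the log2 fold changes of the row with more counts and of its partner had r = 0.55 (Spearman's rho 0.37), given as a description. The ratio of the row with more counts to its partner was then tested within each library, as log2 of CPM + 2 (limma). It changed in 387 of 679 pairs (57.0%), up in 247 and down in 140, and by at least 1 on the log2 scale in 279. In 5 of the 387 a row had 0 counts in all libraries of a group, so that the size of the change rests on the 2 CPM added. The number of changed pairs also depended on it, at 367 with 0.5 CPM added and 438 with 10 CPM added.

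**Figure D4:**
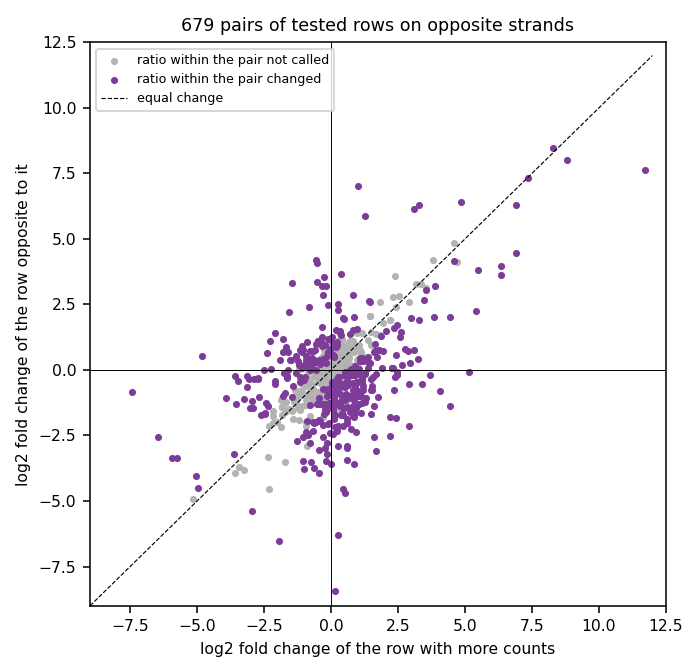
Log2 fold change of M1 vehicle over M0 vehicle of the partner row (vertical) against that of the row with more counts (horizontal) in 679 pairs of tested rows on opposite strands. Purple marks the 387 pairs whose within-library ratio changed, and points on the dashed line have equal changes on both strands.

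The pairs named here had the largest changes of ratio among those at 20 CPM or more. Art3 over Cxcl10, over an overlap of 133 bases, had a log2 ratio of 9.29 in M1 vehicle, and Mir6381 over Gbp2, over 24 bases, one of 7.74. The rows of Cxcl10 and Gbp2 had 0 counts in M0 vehicle, so the ratios there (1.70 and 3.08) are set by the 2 CPM added, and the change of these ratios cannot be read. Both rows of these pairs rose. Numa1, which encodes a protein of the mitotic spindle, over Il18bp had ratios of 4.71 in M1 vehicle and -1.04 in M0 vehicle (5.75, SE 0.23), over an overlap of 80 bases. Tbc1d17 over Il4i1, which encodes an amino acid oxidase that is secreted by myeloid cells, had 3.50 in M1 vehicle and -1.42 in M0 vehicle (4.92, SE 0.18). The Tbc1d17 row averaged 317 ± 32.4 CPM in M1 vehicle and 41.9 ± 5.47 CPM in M0 vehicle and rose (2.92, SE 0.15), and Il4i1's own row 26.5 ± 5.98 CPM in M1 vehicle and 115 ± 7.88 CPM in M0 vehicle and fell (-2.12, SE 0.20).

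Neighbouring genes on chromosome 11 made a chain of such pairs. Abhd15 is opposite to Gm10392 on 883 bases and to Trp53i13 on 328 bases. Abhd15 averaged 213 ± 28.9 CPM in M1 vehicle and 148 ± 12.3 CPM in M0 vehicle and rose (0.53, SE 0.12), Gm10392 averaged 16.9 ± 7.3 CPM in M1 vehicle and 478 ± 33.8 CPM in M0 vehicle and fell (-4.82, SE 0.22), and Trp53i13 5.56 ± 3.17 CPM in M1 vehicle and 146 ± 18.5 CPM in M0 vehicle and fell (-4.69, SE 0.25; SD, n = 4 each). The ratio of Gm10392 to Abhd15 changed by -5.26 (SE 0.38), and that of Abhd15 to Trp53i13 by 4.90 (SE 0.30). Mtrex, an RNA helicase gene, over the lipid phosphatase gene Plpp1 changed by 4.68 (SE 0.37), with 143 ± 15.4 CPM in M1 vehicle and 3.98 ± 0.992 CPM in M0 vehicle for Mtrex and an uncalled 37.9 ± 10.7 CPM in M1 vehicle and 39.5 ± 9.75 CPM in M0 vehicle for Plpp1. Gm45449 over Rnf150 changed by -6.13 (SE 0.26), and Rnf150's own row fell less (34.3 ± 6.44 CPM in M1 vehicle and 61.5 ± 15.6 CPM in M0 vehicle, -0.84, SE 0.21) than Gm45449.

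For 8 genes of the lists the own row and the opposite row were called in opposite directions. Besides Il18bp, Il27, Npc1, Ccnd1, Ccnd3 and Rpl18, these were the peroxiredoxin gene Prdx2, whose own row fell (-1.66, SE 0.65, a call lost with limma-voom at an adjusted p of 0.0561 and in edgeR without M1 vehicle 2 or 4 or M0 vehicle 4 at 0.078 to 0.0899) while Rnaseh2a opposite to it rose (0.41, SE 0.10, and -0.07 when scaled to library totals), and Rps25, whose own row rose (0.92, SE 0.23) while Ccdc84 opposite to it fell (-1.08, SE 0.12). For these genes the direction depends on the row read.

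Rows without a gene opposite were mostly low, and some of the higher ones lay close to a gene on the other strand. Their distance to the nearest coding gene of that strand was under 1 kb for 144 of 537, 1 to 10 kb for 156 and over 10 kb for 237. Of these, 44, 50 and 115 rose and 50, 55 and 47 fell. The rows named here are among the highest of this kind and were chosen after their values were seen. Mpeg1, which encodes the macrophage pore-forming protein perforin-2, lay 1055 bases from Dtx4 and had 511, 572, 582 and 477 CPM in the M1 vehicle libraries, against 435, 336, 392 and 329 CPM in the M0 vehicle libraries (0.52, SE 0.10). Dtx4, a ubiquitin ligase gene on the other strand, had 347, 337, 404 and 369.9 CPM in the M1 vehicle libraries, against 79.01, 84.5, 138 and 94.5 CPM in the M0 vehicle libraries (1.88, SE 0.14). Both rose without overlap. Perm1, 149 bases from Plekhn1, averaged 481 ± 34.5 CPM in M1 vehicle and 32.7 ± 3.54 CPM in M0 vehicle (3.87, SE 0.13), and Orm2, an acute-phase protein gene 1247 bases from Akna, 467 ± 39.6 CPM in M1 vehicle and 84.1 ± 10.1 CPM in M0 vehicle (2.47, SE 0.14). Atg7, an autophagy gene 14 bases from Vgll4, averaged 116 ± 4.07 CPM in M1 vehicle and 500.4 ± 39.1 CPM in M0 vehicle and fell (-2.10, SE 0.09), and Rmdn1, 1371 bases from the ubiquitin ligase gene Wwp1, 7.98 ± 3.21 CPM in M1 vehicle and 308 ± 30.1 CPM in M0 vehicle and fell (-5.23, SE 0.20). Others lay far from any coding gene on the other strand. Ifit2, an interferon-induced inhibitor of translation 16472 bases from Ifit1bl1, had 536, 553, 668 and 454 CPM in the M1 vehicle libraries, against 2.44, 3.19, 9.89 and 0.801 CPM in the M0 vehicle libraries (7.01, SE 0.29), and Tnfrsf8, as given above, lay 195595 bases from a coding gene. Ptma, which encodes prothymosin α, 12282 bases from Pde6d, averaged 225 ± 21.2 CPM in M1 vehicle and 385 ± 75.8 CPM in M0 vehicle and fell (-0.77, SE 0.15).

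Marker lists of cell types were also read, by own and opposite rows. All 10 macrophage marker rows had counts, and their summed level was 301 to 368 CPM in M1 vehicle libraries and 312 to 376 CPM in M0 vehicle libraries. Csf1r, the M-CSF receptor, gave most of it, averaging 215 ± 18.8 CPM in M1 vehicle and 202 ± 7.14 CPM in M0 vehicle (0.09, SE 0.09, adjusted p = 0.392), while Hmgxb3 opposite to it averaged 40.1 ± 3.41 CPM in M1 vehicle and 219.9 ± 20.5 CPM in M0 vehicle and fell (-2.45, SE 0.13). Adgre1, which encodes F4/80, and the LPS coreceptor gene Cd14 rose (1.61, SE 0.24 and 3.01, SE 0.46), and the lysozyme gene Lyz2 fell (-2.50, SE 0.21). Of 14 T cell marker rows 6 were at 0, and the sum of 437 to 522 CPM in M1 vehicle libraries and 669 to 752 CPM in M0 vehicle libraries came from Cd247 and Foxp3. Cd247 is opposite to Pou2f1 and Foxp3 to Ccdc22. Foxp3 fell (-1.11, SE 0.09), from a mean of 341 ± 16.6 CPM in M0 vehicle to 158 ± 5.56 CPM in M1 vehicle. The rows Cd3d, Cd3e, Cd3g, Cd4 and Trac held 0 to 2 counts in a group. Of 7 B cell rows 6 were at 0, of 6 NK cell rows 5 and of 12 neutrophil rows 9, and the highest sum of own rows in a library was 3.2 CPM, while Gm29439, opposite to the B cell surface lectin gene Cd22, averaged 4.57 ± 1.85 CPM in M1 vehicle and 30.5 ± 7.94 CPM in M0 vehicle and fell (-2.69, SE 0.34). The dendritic cell sum was 179 to 261 CPM in M1 vehicle libraries and 9.56 to 14.4 CPM in M0 vehicle libraries, in M1 vehicle mostly through Xcr1, which has no exon opposite and averaged 212 ± 34.8 CPM in M1 vehicle and 2.98 ± 1.4 CPM in M0 vehicle (6.10, SE 0.25). In M0 vehicle Clec9a and Itgae gave most of the sum, at 24 and 20 counts over the group, against 5 and 6 counts in M1 vehicle, and 6 of 10 rows were at 0. Gm13571, opposite to the dendritic cell marker Ly75, averaged 53.5 ± 8.08 CPM in M1 vehicle and 6.55 ± 1.25 CPM in M0 vehicle and rose (3.01, SE 0.31). Own rows of macrophage markers could be low as well. Cd68 had a mean of 5.21 CPM (M1 vehicle) or 9.08 CPM (M0 vehicle), and Mertk, Spi1, Aif1 and Fcgr1 were not tested. Empty own rows therefore cannot show that a cell type was absent. The sums cannot rank cell types either, as the T cell sum lay above the macrophage sum in both groups. What part other cells had in the results was not tested.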

How the data were processed

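RNA of 16 bone marrow-derived macrophage libraries was measured, and the 4 M1 vehicle and 4 M0 vehicle libraries were compared. Alignment by the authors (HISAT2, run in Galaxy, genome mm10) was followed by HTSeq-count per gene, and Trimmomatic, FastQC and DESeq2 are named in the submitters' processing notes. No source used here gives versions, annotation release or strand setting. What the authors deposited were raw counts in 48440 rows, neither normalized nor filtered, of which 32843 had no count in the 8 vehicle libraries. Identifiers of 48058 rows matched GENCODE M21 (mm10), which gave symbols, coordinates and the genes opposite.

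Rows were filtered with filterByExpr (3453 left) and scaled by TMM (factors 0.8316 to 0.8689 in M1 vehicle and 1.156 to 1.1957 in M0 vehicle). The quasi-likelihood test of edgeR 4.0.16 (R 4.3.3) used all 16 libraries, and p-values were adjusted by Benjamini-Hochberg over the rows tested. Scaling on few very abundant rows, and totals of 968819 to 1128575 counts, limit precision for low rows. Ratios within pairs used limma 3.58.1 on log2 of CPM + 2. For single values, exact permutation tests (two-sided) were run. Scripts were tested on simulated data. Where a group was at 0, the fold was taken against 3 counts in that group together, a floor for counting error alone. Chi-square per degree of freedom between libraries of a group was 2.83 to 8.45, so none was a copy of another. Figures used matplotlib 3.10.9 in Python 3.11.15.

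Named rows were, for each list, up to 6 members of highest CPM that passed and up to 3 that did not, the 12 largest increases and decreases at 20 CPM or more without overlap, the 10 highest rows, the 8 pairs of largest change, Alox12, Alox15 and markers. The members and lists were chosen with earlier results of these data known. Alternatives were other filters, scalings and tests (DESeq2 1.42.0, limma-voom), the vehicle libraries alone, a replicate block, other pair settings and leaving out each library. Scaling to library totals was added after seeing the data. Results of VLX-1005 and some single genes are not reported here.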

Additional observations from a re-analysis of the deposited data

Results flagged for a closer look

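In 15 of 354 groups of 4 libraries, 1 library lay apart from the other 3 beyond Dixon's critical value, counting the rows named in the text with at least 40 counts in the group and the library totals and shares. Chance alone gives about 1 in 20 groups.

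In M1 vehicle, library 1 was high in the rows Gbp7 (45.1 CPM, against 29.5 to 31.2 CPM in the others), Gm11131, opposite to H2-Q4 (10072, against 8776 to 8970 CPM), and Trmt112, opposite to Prdx5 (538, against 476 to 486 CPM). Library 2 was high in Gm26825 (25253, against 23072 to 23282 CPM), Cand2, opposite to Rpl32 (382, against 344 to 351 CPM), and Tnpo3, opposite to Irf5 (59, against 36.5 to 40.1 CPM). Library 3 was low in Arg2 (15.6, against 27.0 to 27.9 CPM), a row that was not called, and library 4 was high in Hspa5 (48.2, against 28.8 to 30.1 CPM).

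In M0 vehicle, library 1 was high in Gm10252, opposite to Ftl1 (113619, against 101458 to 102156 CPM), and in Cdk4 (1409, against 1216 CPM in each of the others), and low in Atg7 (442, against 514 to 527 CPM). Library 3 was low in Gm43292, opposite to Eif2ak3 (256, against 289 to 293 CPM), and Gm5475, opposite to Slc11a2 (70, against 91.3 to 93.7 CPM). Library 4 was high in Bid (157, against 125 to 129 CPM) and in Gm26584, opposite to Slc7a2 (36.8, against 31.0 to 31.9 CPM). Whether called or not, these rows had the same result without the library that lay apart.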

How the results depend on the processing

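Counts of calls followed the number of rows tested. When rows needed 50 counts per library on average (1678 rows), 597 rose and 680 fell, and 267 were higher and 311 lower at a fold change over 2. Among the 537 rows without a gene on the other strand, fitted alone, 211 rose and 156 fell, and 192 were higher and 131 lower. With no low-count filter (17769 rows), 1429 were higher and 1716 lower, and 195 own rows of the lists rose. Scaled to library totals, an alternative chosen after seeing the data, 713 rose and 1833 fell, and 479 were higher and 1204 lower. The rows that rose and fell were 1104 and 1103 with DESeq2, 1096 and 1153 with limma-voom, 1127 and 1154 with RLE scaling, 1035 and 1275 with upper quartile scaling, and 967 and 1058 with the 8 vehicle libraries alone. Leaving out 1 library gave 1077 to 1123 that rose and 1136 to 1203 that fell.

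Pairs with both rows at a mean of 50 counts changed their ratio in 141 of 187, and leaving out 1 library gave 362 to 392 of 679. The difference in rows detected ranged from -1240 to -954 with 1 library left out. It was -1004 without M1 vehicle 1 and -991 without M1 vehicle 2 (exact p = 0.0571 in both). The difference of the share in the 10 highest rows ranged from 1.28 to 2.06 percentage points, and was 2.06 without M0 vehicle 1 (exact p = 0.0286) and 8.87 for the 100 highest rows.

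Replicate numbers gave no sign of a pairing of the libraries, though 4 libraries a group cannot exclude one. Same-numbered M1 vehicle and M0 vehicle libraries deviated together with r from -0.068 to 0.05. M1 vehicle 4 correlated best with M0 vehicle 4 (r = 0.05), and none of the M1 vehicle libraries 1 to 3 with its own number. With the replicate block 1109 rows rose and 1206 fell, 670 were higher and 799 lower, and 393 pairs changed.

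Over 211 rows named in the text and 14 alternatives each, 2913 values kept their direction and their side of the threshold, 17 calls were lost and 2 gained, and the other 8 could not be fitted because the row was below the count filter with the 8 vehicle libraries alone. Irf5 was among the calls lost (0.16 with upper quartile scaling, adjusted p = 0.0669). The 14 sign changes were in 4 rows that were not called. Grtp1 had 0.03 with DESeq2 and with RLE, and -0.03 to 0.02 without 1 library. Hsp90b1 had 0.01 with DESeq2 and with RLE, and -0.14 to 0.09 without 1 library. Plpp1 had -0.25 to 0.09 and Gm15655 -0.15 to 0.04 without 1 library.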
